A study of Mus musculus with 6 samples.

Results

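Beta cells keep a small set of genes nearly silent that most other tissues express, often called the disallowed genes, and 10 of them were followed here in cultured mouse islets: Slc16a1, Igfbp4, Oat, Smad3, Maf, Acot7, Rest, Lmo4, Zyx and Tgm2. They were taken by symbol from the array's annotation, and all 10 were found among 18193 genes with a probe set of their own. The array reads a gene through 1 or more sets of short probes, and the 10 genes had 32 probe sets. The brightest probe set, by its mean over the 6 arrays, gives a gene's main value, and all others are shown beside it.

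Islets came from male CD1 mice, an outbred strain, aged 8 weeks, and rested overnight in culture. One group of 3 samples then received vehicle (0.1% ethanol) and the other group of 3 received 200 uM CMPF, a metabolite of furan fatty acids that circulates in blood, for 24 hours. Both groups share strain, sex, age and culture, and the labels do not say whether an islet sample was pooled from several mice. The ethanol content was recorded for the vehicle samples only. Replicate numbers 1 to 3 were used to match a CMPF array to a vehicle array, and such a match is called a pair below.

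In a beta cell, silence of these genes goes with the coupling of insulin release to glucose. Low expression of the monocarboxylate transporter gene Slc16a1 keeps lactate and pyruvate from the blood from driving insulin release, and low expression of the repressor gene Rest allows neuron-type genes of the secretory machinery to be used. Several of the others are signalling, transcription or cell adhesion genes that the non-beta cells of an islet preparation express freely. Expression of such genes in beta cells is used as a sign of lost cell identity.

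The log2 signal of the 10 main probe sets lay between 5.22 and 9.29 on single arrays, and 8 of them had a mean above the median of all genes, 6.42. Signals of different probe sets do not rank transcript abundance. The beta cell marker Ins2, an insulin gene, read 14.61 to 14.73, but the acinar marker Ctrb1, a digestive protease, read 13.15 to 14.25, so the samples held other pancreatic cells too. Whole-islet signal therefore cannot show how low these genes are in beta cells themselves, and a change in the number of cells of a type cannot be told apart from a change in RNA per cell.

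Promoters were examined because many genes silenced in this way have promoters rich in CG dinucleotides. A RefSeq promoter window (GRCm38.p6) was matched for 7 of the 10 genes, with 9 windows in all, and Maf, Rest and Tgm2 had no match. In the 250 bases before the start, the median number of CG dinucleotides was 22 over the 9 windows and 6 over 32851 windows of all genes. Of the 9 windows 6, from 4 genes (3 of the 6 from Lmo4), held more than the upper quartile of 16, as did 23.5% of all windows. Slc16a1 held 37, Smad3 and Igfbp4 each held 22, Zyx 15, Oat 14 and Acot7 only 6, while the 3 Lmo4 windows held 25 to 44. Slc16a1 and Acot7 are shown as the richest and the poorest of the genes with 1 window, and Smad3 and Zyx because they were the genes higher with CMPF in every pair. All are printed 5′ to 3′ on the gene's strand with CG dinucleotides in capitals.
Slc16a1 (chr3:104638414-104638663, plus strand): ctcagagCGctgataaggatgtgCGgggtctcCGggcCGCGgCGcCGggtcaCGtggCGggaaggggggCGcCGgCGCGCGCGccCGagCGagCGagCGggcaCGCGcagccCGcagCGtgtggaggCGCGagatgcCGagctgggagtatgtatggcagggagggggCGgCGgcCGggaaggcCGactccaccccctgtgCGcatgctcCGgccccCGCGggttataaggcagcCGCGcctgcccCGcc
Acot7 (chr4:152185358-152185607, plus strand): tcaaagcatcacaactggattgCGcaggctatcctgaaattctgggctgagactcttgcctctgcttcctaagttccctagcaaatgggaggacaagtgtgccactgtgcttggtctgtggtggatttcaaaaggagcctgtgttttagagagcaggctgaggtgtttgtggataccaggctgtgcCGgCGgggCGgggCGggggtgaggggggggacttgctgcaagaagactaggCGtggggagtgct
Smad3 (chr9:63757995-63758244, minus strand): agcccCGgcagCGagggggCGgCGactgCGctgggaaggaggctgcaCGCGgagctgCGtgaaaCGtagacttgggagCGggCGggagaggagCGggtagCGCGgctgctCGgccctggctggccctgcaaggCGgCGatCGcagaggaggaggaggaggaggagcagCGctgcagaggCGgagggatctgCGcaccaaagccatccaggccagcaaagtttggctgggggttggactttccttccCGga
Zyx (chr6:42349578-42349827, plus strand): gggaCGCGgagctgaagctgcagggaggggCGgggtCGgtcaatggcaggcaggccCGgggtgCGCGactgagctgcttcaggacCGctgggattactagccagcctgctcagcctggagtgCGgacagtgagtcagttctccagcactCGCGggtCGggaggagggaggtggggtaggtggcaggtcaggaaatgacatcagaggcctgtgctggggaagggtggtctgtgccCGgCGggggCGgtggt

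Within these windows, searched on both strands, the GC box GGGCGG occurred in 7 of the 9 windows and in 32.7% of all windows. These 7 include all 3 windows of Lmo4, 2 of which overlap, so they are not 7 separate promoters. The SMAD box CAGAC occurred in 3 of the 9 and in 42.2% of all. The AP-1 site TGANTCA occurred in 1 of the 9, that of Zyx, and in 6.75% of all. None of the 3 motifs is contained in another, the GC box holds a CG dinucleotide, and a match is a description of sequence, not a binding site.

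For each of the 10 genes the difference between CMPF and vehicle was smaller than the SD of the vehicle arrays. That SD holds the spread between replicate numbers. By limma, 0 of the 10 passed an adjusted p of 0.05 (adjusted p = 0.99995 for each), against 0% of all genes. An unadjusted p under 0.05 was reached by 0 of the 10 and by 205 genes (1.13%) overall. With the replicate number as a block these numbers were 0 of 10, and 692 genes (3.8%). The differences, CMPF minus vehicle on the log2 scale, ran from -0.27 for Maf to 0.24 for Smad3, with a median of 0.03 against 0.0018 over all genes. The groups overlapped for all 10 genes, whereas they did not overlap for 4.52% of all genes. Of the 10, 6 had a positive difference, as did 50.7% of all genes. Smad3 and Zyx were higher with CMPF in all 3 pairs (11.8% of all genes were) and 0 were lower in all 3 (11.1% of all genes were).

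The median over the 10 genes changed sign with single arrays. It was -0.07 without vehicle 1, -0.04 without vehicle 3, -0.13 without CMPF 2 and -0.07 without CMPF 3, and 0.18 without vehicle 2 and 0.28 without CMPF 1. Without pair 1 it was 0.19 and without pair 3 it was -0.14. With array weights, which let arrays count unequally in the fit, it was 0.12, and the difference of Slc16a1 was then 0.33.

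**Figure D1:**
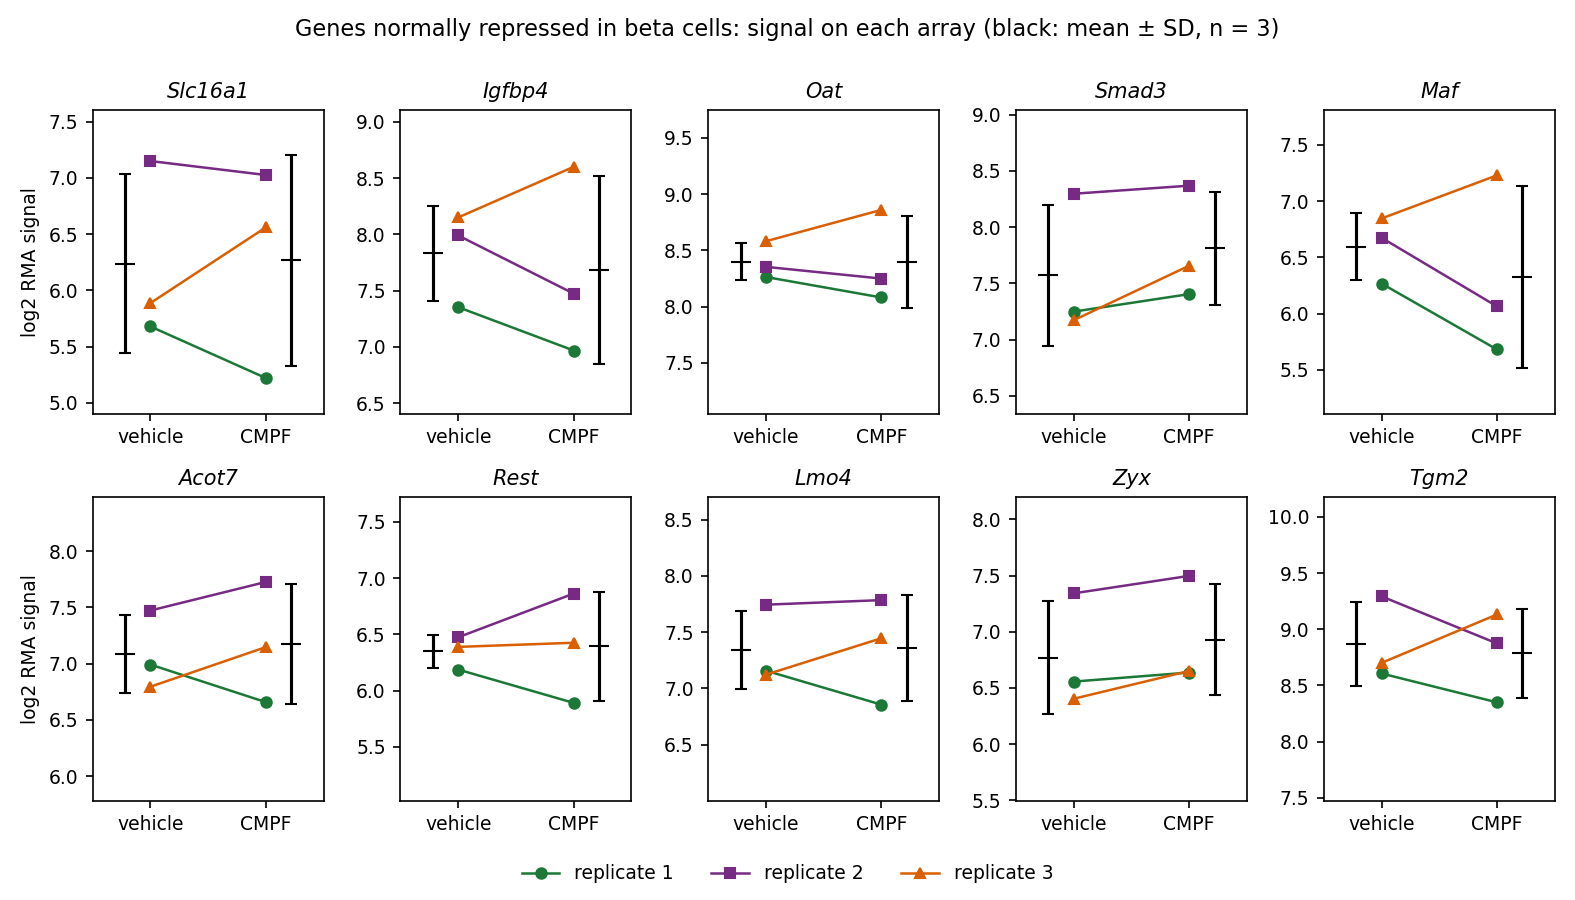
Log2 signal of the main probe set of each of the 10 genes with vehicle and with CMPF, each line joining the arrays of 1 replicate number and black bars giving the mean ± SD (n = 3). Each panel spans the same number of log2 units, and the 2 groups overlap in all 10 panels, with lines of replicate 2 on top in 6 of them.

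Among the metabolic genes, Slc16a1, which moves lactate, pyruvate and ketone bodies across the cell membrane, varied most between arrays. It read 5.68, 7.15 and 5.89 with vehicle 1, 2 and 3, and 5.22, 7.03 and 6.56 with CMPF 1, 2 and 3. Replicate 2 was the highest in both groups, and the 6 arrays spanned 1.93 log2 units. The means were 6.24 ± 0.80 (SD, n = 3) and 6.27 ± 0.94 (SD, n = 3), a difference of 0.03 (SE 0.531). The pairs went apart, at -0.46, -0.12 and 0.67. The 95% interval, from -1.22 to 1.28, was the widest of the 10 genes and would hold changes of more than 2-fold in either direction.

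Oat, ornithine aminotransferase of the mitochondrial matrix, showed the smallest difference. It read 8.26, 8.35 and 8.58 with vehicle and 8.08, 8.25 and 8.86 with CMPF. The CMPF arrays enclosed the vehicle arrays on both sides. The difference was -0.0025 (SE 0.204), with an interval from -0.48 to 0.48, the narrowest of the 10.

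Acot7, a thioesterase that cleaves long-chain acyl-CoA, read 6.99, 7.47 and 6.80 with vehicle and 6.66, 7.73 and 7.15 with CMPF. Here too replicate 2 was the highest in both groups. The difference was 0.09 (SE 0.283), with pairs at -0.33, 0.25 and 0.35.

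Of the secreted and matrix-linked proteins, Igfbp4, which binds insulin-like growth factors, read 7.35, 7.99 and 8.15 with vehicle and 6.97, 7.47 and 8.60 with CMPF. CMPF 1 was the lowest and CMPF 3 the highest of the 6 arrays. The difference was -0.15 (SE 0.408), with pairs at -0.39, -0.52 and 0.45. Without CMPF 3 it was -0.61 and without CMPF 1 it was 0.21.

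Tgm2, a transglutaminase that cross-links proteins, read 8.61, 9.29 and 8.70 with vehicle and 8.35, 8.87 and 9.13 with CMPF. Vehicle 2 was the highest of the 6 arrays. The difference was -0.08 (SE 0.245), with pairs at -0.26, -0.42 and 0.43.

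Smad3, the transcription factor that carries TGF-beta signals to the nucleus, had the largest positive difference. It read 7.25, 8.30 and 7.17 with vehicle and 7.40, 8.37 and 7.66 with CMPF. Each CMPF array lay above the vehicle array of its number, by 0.16, 0.07 and 0.49, but replicate 2 stood above the others in both groups by more than any of these. The means were 7.57 ± 0.63 (SD, n = 3) and 7.81 ± 0.50 (SD, n = 3), a difference of 0.24 (SE 0.352) or 1.18-fold, with an interval from -0.59 to 1.06. With the replicate block the SE was 0.103 and the interval was -0.01 to 0.49 (unadjusted p = 0.060 and adjusted p = 0.979 by limma). Without CMPF 2 and with no block the difference was -0.04, and without vehicle 2 it was 0.60. Since replicate 2 was highest in both groups, leaving it out of 1 group shifts the difference by itself. Leaving out a whole pair gave 0.28 without pair 1, 0.32 without pair 2 and 0.11 without pair 3.

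Zyx, a LIM protein of focal adhesions and actin fibres, was also highest on replicate 2 in both groups. It read 6.56, 7.34 and 6.40 with vehicle and 6.64, 7.50 and 6.65 with CMPF, with pair differences of 0.08, 0.16 and 0.25. The difference was 0.16 (SE 0.310), and the interval ran from -0.57 to 0.89. With the block the SE was 0.079 and the interval was -0.03 to 0.35 (unadjusted p = 0.086 and adjusted p = 0.979 by limma). With no block the difference was -0.12 without CMPF 2, -0.02 without vehicle 3 and 0.45 without vehicle 2. Leaving out a whole pair gave 0.20 without pair 1, 0.16 without pair 2 and 0.12 without pair 3. For Zyx, pairs held 95.5% of the sum of squares over the 6 arrays and the treatment 3.78%.

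Maf, a large Maf factor related to the beta cell activator Mafa, had the largest negative difference. It read 6.27, 6.67 and 6.85 with vehicle and 5.68, 6.06 and 7.23 with CMPF. CMPF 1 and 2 lay below all vehicle arrays and CMPF 3 lay above all of them. The means were 6.60 ± 0.30 (SD, n = 3) and 6.33 ± 0.81 (SD, n = 3), a difference of -0.27 (SE 0.375) with an interval from -1.15 to 0.61. Without CMPF 3 it was -0.72, without CMPF 1 it was 0.05. Without pairs 1, 2 and 3 in turn it was -0.11, -0.10 and -0.60.

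Rest, the zinc finger repressor of neuronal genes, read 6.19, 6.47 and 6.39 with vehicle and 5.89, 6.86 and 6.42 with CMPF. The CMPF arrays again enclosed the vehicle arrays. The difference was 0.04 (SE 0.230), with an interval from -0.50 to 0.58.

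Lmo4, a LIM-only cofactor of transcription, read 7.16, 7.75 and 7.12 with vehicle and 6.86, 7.79 and 7.45 with CMPF. The difference was 0.02 (SE 0.262), and the pair differences were -0.30, 0.04 and 0.32.

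**Figure D2:**
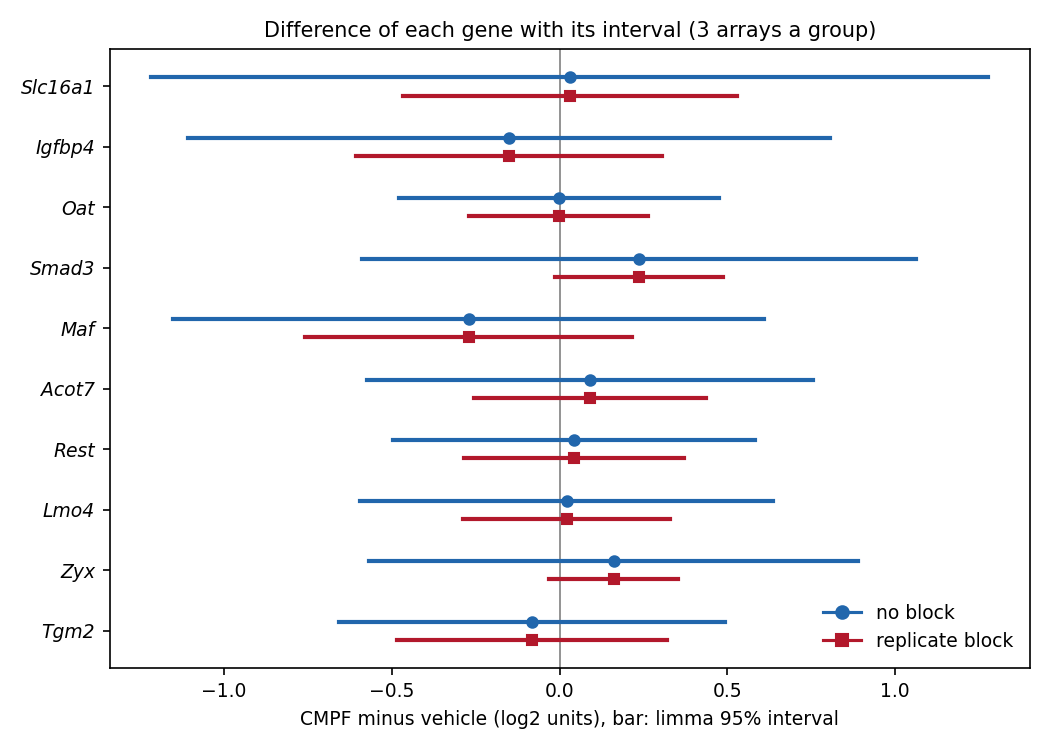
CMPF minus vehicle in log2 units for each of the 10 genes, with limma's 95% interval without (blue) and with (red) the replicate block. All 20 intervals hold 0, and those with the block are narrower, with the lower ends for Smad3 and Zyx at -0.01 and -0.03.

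The probe sets of a gene did not always point the same way. Of the 32 probe sets 15 had a positive and 17 a negative difference, where 50.7% of all genes were positive by their main sets. In all 3 pairs 4 were higher and 2 lower with CMPF, where 11.8% and 11.1% of all genes were. Shares over all probe sets are not given here. Among the 7 genes with more than 1 probe set 6 held both signs. The 3 brightest Tgm2 sets differed by -0.08, -0.06 and -0.02, with pair 1 and pair 2 negative and pair 3 positive in each. Of the 6 Igfbp4 sets, 5 had differences from -0.15 to -0.01 and the same order of pair signs. The remaining Igfbp4 set, with a mean of 6.13, went the other way. It differed by 0.21 (SE 0.120), with pairs at 0.35, 0.25 and 0.02.

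Smad3 and Zyx did not keep their sign over all sets. The 2 dim Smad3 sets, at mean signals of 4.04 and 3.97, differed by 0.13 (SE 0.096) and -0.02 (SE 0.085). The second Zyx set stood at -0.04 (SE 0.091), with each pair below 0, where each pair of the main set lay above 0. For Maf, the main set stood at -0.27, and the 5 dimmer sets, with means from 3.00 to 4.75, lay between -0.06 and 0.17. Rest had a second set with a mean of 5.98 that differed by -0.19 (SE 0.405), with a pair 1 difference of -0.91, against 0.04 for the main set.

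**Figure D3:**
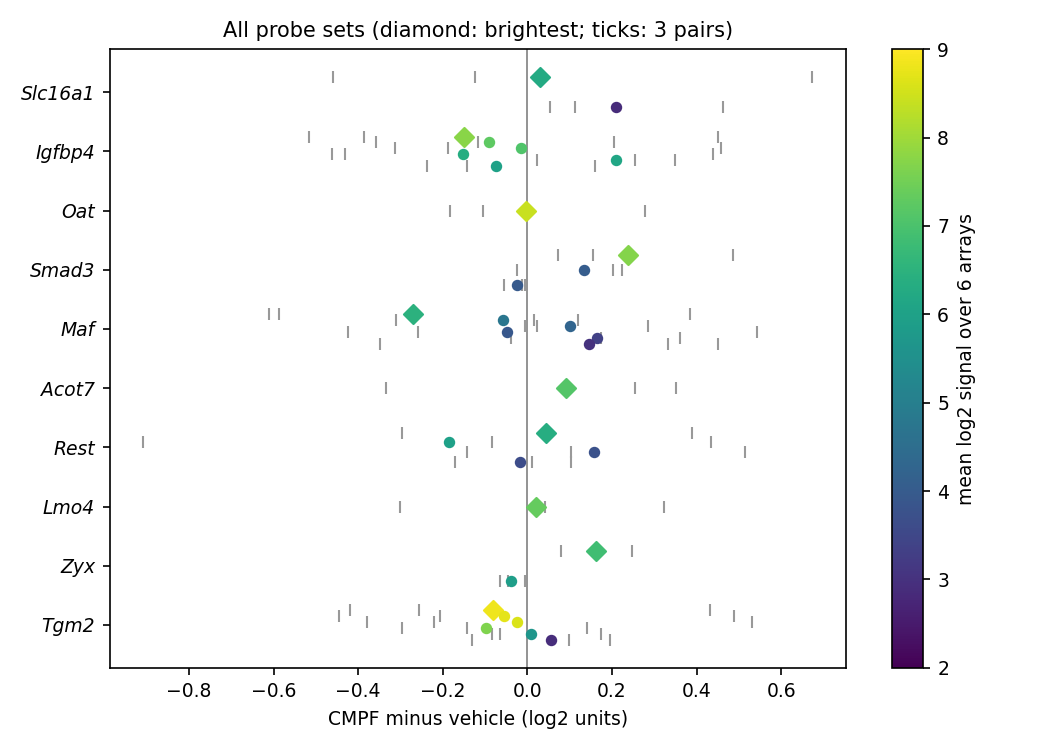
CMPF minus vehicle in log2 units for all 32 probe sets of the 10 genes, coloured by mean signal, with the brightest set of a gene as a diamond and grey ticks for the 3 pairs. The main sets of Smad3 and Zyx lie to the right of 0 with all 3 ticks, and the dimmer Zyx set lies left of 0 with all 3 ticks.

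The 10 genes varied between pairs more than most genes did. Their median range over the 6 arrays was 1.08 log2 units, against 0.37 for all genes, and pairs held a median of 83.5% of their sum of squares, against 59.7%. The treatment held a median of 1.57%, against 7.58%. Their median standard error was 0.297 against 0.116 for all genes, and 0.139 against 0.0877 with the block. Smaller changes were therefore harder to detect for them than for most genes.

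Across arrays the 10 genes shared their lowest CMPF array and their sign in pair 3, a pattern described after the values were seen. All 10 were lowest on CMPF 1 among the CMPF arrays, where 32.8% of all genes were, although Zyx differed from CMPF 3 there by only 6.64 against 6.65. With median centring or a second quantile normalization 9 were, and with the mean of a gene's probe sets 8 were. Of the 10, 8 were lowest on CMPF 1 among all 6 arrays (21.4% of all genes), or 6 with the mean of a gene's probe sets. In pair 3 all 10 were higher with CMPF, as were 49.2% of all genes, and in pair 1 there were 8 lower (51% of all genes). Those 8 thus had opposite signs in pair 1 and pair 3, as did 28.2% of all genes with the same signs. Pair 2 split them, with 5 lower (47.4% of all genes). Over the 32 probe sets, 26 were higher with CMPF in pair 3 and 22 were lowest on CMPF 1 among the CMPF arrays. Among all 6 arrays, 17 of the 32 were lowest on CMPF 1. Shares over all probe sets are not given here for these counts.

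Different orders could be seen within that pattern. Slc16a1, Smad3, Acot7, Rest, Lmo4 and Zyx were highest on replicate 2 in both groups (6 of 10, against 19.8% of all genes). Of the 32 probe sets 11 had this order, and the share over all probe sets is not given here. Igfbp4, Oat and Maf were instead highest on replicate 3 and lowest on replicate 1 in both groups, and Tgm2 was highest on vehicle 2 and on CMPF 3. The genes closest to the 3 most variable members, by root mean square distance of centred log2 values over the 6 arrays, were as follows. Maf lay closest to Anxa1, an annexin (distance 0.0424), and Vim, the mesenchymal filament protein vimentin (0.0737). Igfbp4 lay closest to Timp1, a metalloproteinase inhibitor (0.0650), and Chsy1 (0.0734). Slc16a1 had no neighbour as close, with Hmga2-ps1 at 0.156 and Thbs1, a matrix glycoprotein, at 0.170.

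Markers of other cell types moved over the same arrays. For the 8 stellate and mesenchymal markers, the median deviation from the mean over 6 arrays was -0.15, -0.02 and 0.45 with vehicle 1, 2 and 3 and -0.57, -0.55 and 0.69 with CMPF. Their pair medians were -0.36, -0.51 and 0.28, with the signs of Slc16a1, Igfbp4, Maf, Oat and Tgm2 in each pair. Of the 8, 0 had a positive difference, against 50.7% of all genes. The log2 of their summed signal ranged from 12.91 to 13.53 with vehicle and from 12.50 to 13.77 with CMPF. For the 6 duct markers the deviations were -0.11, 0.31 and -0.40, then -0.43, 0.40 and -0.02, highest on replicate 2 as for Smad3 and Zyx, and their summed signal ranged from 12.28 to 12.59 and from 12.27 to 12.62. The duct markers did not move as 1 group. Krt19, a duct keratin, read 9.25, 10.79 and 8.97 with vehicle and 9.33, 10.84 and 9.69 with CMPF, whereas the keratin Krt7 was lowest on replicate 2 in both groups, at 11.63 and 11.62, and Tspan8 was highest on replicate 3, at 9.62 and 9.52.

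Acinar markers were also highest on replicate 2, with deviations of 0.59 and 0.72 there and -0.96 on vehicle 3. Of the 7 measured, 6 were higher with CMPF in all 3 pairs, as were 11.8% of all genes. Their summed signal ranged from 15.01 to 16.31 with vehicle and from 15.71 to 16.42 with CMPF. The 8 endothelial markers deviated by -0.42 on CMPF 1 and by 0.36 on CMPF 3, and their summed signal ranged from 9.62 to 9.97 and from 9.45 to 10.14. The 8 beta cell markers went the other way on the outer arrays, at 0.24 on CMPF 1 and -0.11 on CMPF 3. Slc2a2, the glucose transporter of beta cells and the marker with the widest range of the 8, read 11.46 on CMPF 1 and 9.63 on CMPF 3. Ucn3 read 10.21 and 8.61 on these arrays, whereas Ins2 read 14.70 and 14.69 and Iapp 14.60 and 14.59. The summed signal of beta cell markers ranged from 15.88 to 16.04 with vehicle and from 15.90 to 16.04 with CMPF. Macrophage, Schwann, alpha and delta cell medians deviated by at most 0.23 on any array. With the block, 4 of 7 acinar, 3 of 8 endothelial and 1 of 6 duct markers had an unadjusted limma p under 0.05. All of these were higher with CMPF, 0 markers of the other lists reached it, and 3.8% of all genes did. After adjustment 0 markers passed. The part of these cell types in the values of the 10 genes was not tested.

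**Figure D4:**
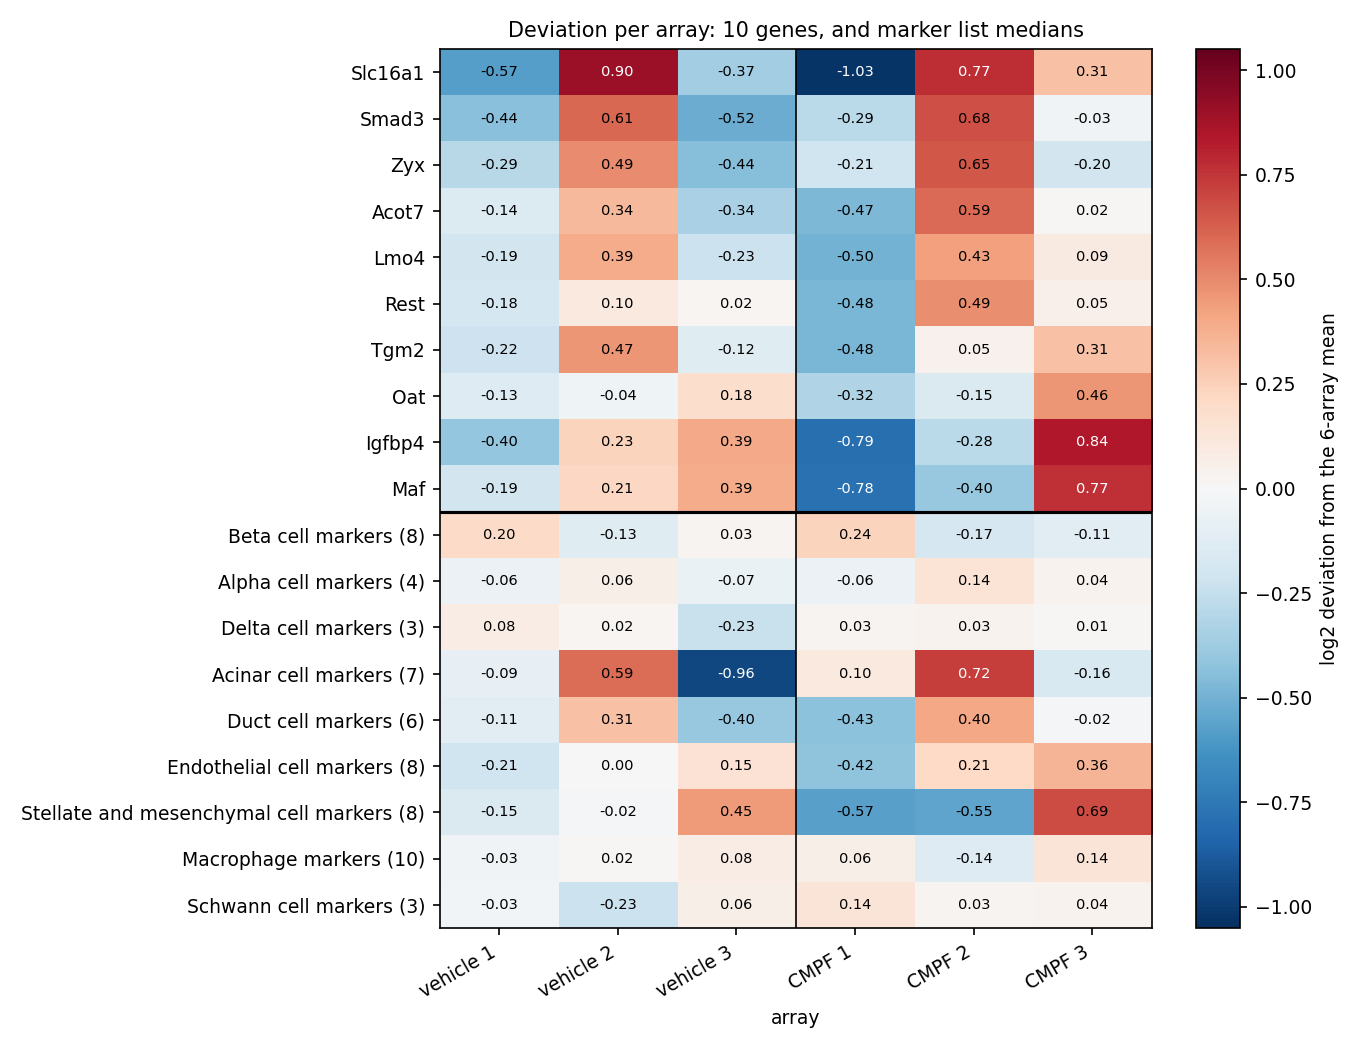
Deviation of log2 signal from the mean over 6 arrays for the 10 genes (above the line) and the median deviation of each marker list, with its number of measured genes (below the line). Igfbp4 and Maf reach 0.84 and 0.77 on CMPF 3, where the stellate markers reach 0.69. Smad3 and Zyx peak on replicate 2 at 0.68 and 0.65 with CMPF, where duct markers reach 0.40 and acinar markers 0.72.

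Related genes were read from lists set by function, and limma called 0 genes of any list at an adjusted p of 0.05, with or without the block. An unadjusted p under 0.05 was reached by 0 without the block and by 6 of 129 with it (4.65%, against 3.8% of all genes). These were Cxcl12, Mgst1, Arhgdib, Slc16a7, Acot12 and Ldb2. All 6 were higher with CMPF, as were 459 of the 692 genes that reached it with the block over the whole array. Over all genes the median was 0.0018, with 11.8% higher and 11.1% lower in every pair, as given above. A further 21 genes described as low in beta cells had a median difference of 0.03, with 12 positive, and 5 lay higher and 0 lower in every pair. Their pair medians were -0.10, -0.02 and 0.33, again highest in pair 3. Ldha, the lactate dehydrogenase subunit that beta cells keep low together with Slc16a1, read 9.98, 11.16 and 11.05 with vehicle and 9.45, 11.09 and 11.57 with CMPF, a difference of -0.02 (SE 0.556). Its pair differences of -0.53, -0.07 and 0.52 had the signs of those of Slc16a1. Pdgfra, a mesenchymal growth factor receptor, differed by -0.30 (SE 0.472), with pair 2 at -1.40. Arhgdib differed by 0.22 (SE 0.104), with each pair above 0. The chemokine gene Cxcl12 and the glutathione transferase Mgst1, chosen after their values were seen, each differed by 0.46 on the log2 scale (SE 0.63 and 0.61).

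Around Slc16a1, the 8 measured genes of monocarboxylate transport and lactate or pyruvate handling had a median of 0.02, with 1 higher in every pair. The related transporter Slc16a7 differed by 0.29 (SE 0.302) and Bsg, the partner that brings these transporters to the membrane, by -0.13 (SE 0.160). Mpc1, of the mitochondrial pyruvate carrier, differed by -0.11 (SE 0.097). Around Igfbp4, the 12 IGF ligands, receptors and other binding proteins had a median of -0.10, with 2 positive and 1 lower in all 3 pairs. Igfbp1 differed by -0.41 (SE 0.341) and the receptor Igf2r by -0.13 (SE 0.146).

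Near Oat, 11 enzymes of ornithine, proline and polyamine metabolism had a median of -0.04, with 1 lower in all 3 pairs. Odc1, which makes the polyamine putrescine, differed by -0.29 (SE 0.177) and Arg1, arginase, by -0.15 (SE 0.107). Next to Acot7, 10 other acyl-CoA thioesterases had a median of 0.01, and 3 were higher and 1 lower throughout the 3 pairs. Acot12 differed by 0.22 (SE 0.166) and Acot13 by -0.06 (SE 0.095). Of the other transglutaminases, 6 were measured with a median of 0.03, and Tgm5 differed by 0.22 (SE 0.139).

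Genes of the TGF-beta pathway around Smad3 had mostly negative differences. The 11 TGF-beta ligands, receptors and other SMADs had a median of -0.05, with 3 positive and 1 lower in every pair, and Tgfbr1, a receptor, differed by -0.10 (SE 0.131). The 10 measured target genes had a median of -0.12, with 2 positive and 0 of 1 sign in all 3 pairs. Among these, Fn1, fibronectin, differed by -0.31 (SE 0.230), Tgfbi by -0.30 (SE 0.197) and the collagen gene Col1a1 by -0.29 (SE 0.391). The pair medians of the targets were -0.31, -0.26 and 0.26, and the part of stellate cells, whose markers had pair medians of the same signs, was not tested.

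For Rest, 15 neuronal and secretory genes that it represses in other tissues had a median of -0.06, with 4 positive, and 5 lay lower and 0 higher in every pair. Snap25, of the exocytosis machinery, read 11.02, 10.92 and 10.85 with vehicle and 10.97, 10.71 and 10.76 with CMPF, a difference of -0.11 (SE 0.103). The granule protein gene Scg2 differed by -0.10 (SE 0.107), lower in all 3 pairs, and Stmn2 by -0.22 (SE 0.166). The 7 corepressors had a median of 0.0016, and Rcor1, a scaffold for Rest, differed by -0.17 (SE 0.180) and Rcor2 by 0.22 (SE 0.158).

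The 4 other Maf factors measured had a median of 0.01. Maff, a small Maf, was higher in all 3 pairs by 0.08 to 0.09, a mean difference of 0.09 (SE 0.180), while Mafa was not analysed here. LMO and LIM partner factors had a median of -0.0014 over 7 genes, and Ldb2, a partner of LIM proteins in endothelial and other cells, stood at 0.26 (SE 0.122), with each pair above 0. Zyxin relatives and focal adhesion partners had a median of -0.01 over 10 genes, with 1 higher in all 3 pairs, and Evl, which binds zyxin-family proteins, differed by -0.11 (SE 0.131).

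**Figure D5:**
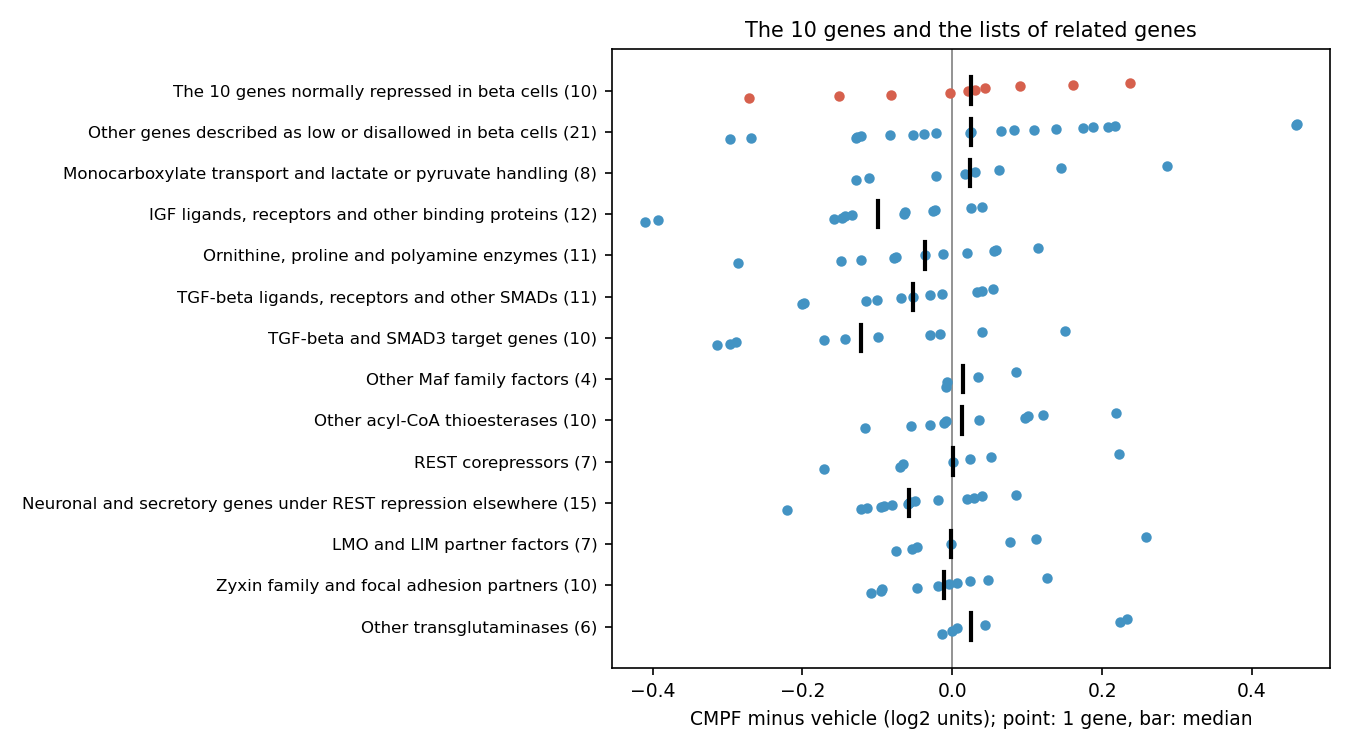
CMPF minus vehicle in log2 units for the 10 genes (red) and for each list of related genes (blue), 1 point a gene, with a bar at the median and the number measured in brackets. Medians lie between -0.12 for TGF-beta and SMAD3 target genes and 0.03, and 0 genes shown passed the test.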

How the data were processed

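All values used are the log2 signals deposited by the authors, who, per the submitters' processing notes, ran RMA in Affymetrix Expression Console 1.1. This method subtracts background, equalises the distributions of the arrays and combines the probes of each set, so differences in total signal are removed and those of dim genes are compressed. How it was set is not given in the sources used here. There is no detection call, and the number of arrays limits the precision.

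Of 45101 probe sets, 34945 had 1 gene in the platform's annotation, 932 had several, 9160 had none and 64 were controls. Entrez IDs matched 34741 to RefSeq (GRCm38.p6). The brightest single-gene probe set stood for each of 18193 genes, with no filter. CMPF and vehicle were compared by a two-sided limma fit (version 3.58.1, R 4.3.3) whose p-values were Benjamini-Hochberg adjusted over the whole table. The fit without a block was tried on simulated data whose arrays had no pair effect. Arrays of the same number moved together here, so that trial does not check the fit for this design. Alternatives were the replicate block, probe set means, median centring, a second quantile normalization, array weights, filters on dim genes and leaving out arrays or pairs. The labels do not say that samples came from separate animals, so p-values may measure technical spread.

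Same-numbered arrays of the groups deviated together from their group means (r from 0.488 to 0.638 over genes, against -0.555 to 0.0885 for other numbers). Deviations from a group mean cancel out over the group's arrays, so high values for same numbers push the others down. The ranges are therefore not independent of each other. Numbers were therefore used as pairs for pair differences and for the block, a choice resting on these values because no label states it. The main fit had no block, so SEs and intervals given without mention of the block include the spread between pairs. The members and lists were chosen with earlier results of these data known. Genes of related lists were named from among the 3 with the smallest p in each list, plus Mafa, Ldha and Pdgfra, and nearest genes were named for the 3 members with the widest range. Marker genes outside that rule were named as examples of their lists.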

Additional observations from a re-analysis of the deposited data

How the results depend on the processing

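The counts of genes and of members past the adjusted p of 0.05 were 0 under each of the 16 settings tried (with the replicate block the smallest limma adjusted p was 0.979 for genes and members alike), and the block changed no call. The block and the filters cannot move a difference. Under probe set means (for genes with more than 1 set), median centring, a second quantile normalization and array weights, 31 of 37 member differences kept their sign. The others were Maf at 0.0057 and Rest at -0.00083 with the mean of a gene's probe sets, Oat at 0.015 with a second quantile normalization, and Igfbp4 at 0.077, Oat at 0.074 and Tgm2 at 0.082 with array weights. Leaving out 1 array or 1 pair moved the difference between -0.35 and 0.55 for Slc16a1, -0.61 and 0.21 for Igfbp4, -0.23 and 0.16 for Oat, -0.042 and 0.60 for Smad3, -0.72 and 0.051 for Maf, -0.18 and 0.35 for Acot7, -0.19 and 0.29 for Rest, -0.19 and 0.27 for Lmo4, -0.12 and 0.45 for Zyx, and -0.34 and 0.14 for Tgm2. The cause was not tested. Counts of members by array order under other scalings were added after seeing the data. Slc16a1 and Rest fell out under the filter at the median.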
